A study of Mus musculus with 16 samples.

Results

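The integrated stress response genes described here are Atf4, Atf3, Atf5, Ddit3, Trib3, Asns, Chac1 and Sesn2. All probes that carried 1 of these 8 symbols in the platform's probe table were taken, on all 16 arrays, whatever their signal. This gave 12 of the 25697 probes on the array, for 8 of its 16593 genes. Asns had 3 probes, Ddit3 and Sesn2 had 2 each, and the other genes had 1 probe each. Where a gene had several probes they are numbered by their mean signal over the 16 arrays, the brightest first.

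The integrated stress response begins when a kinase such as PERK, GCN2, PKR or HRI phosphorylates the translation factor eIF2alpha, which lowers protein synthesis in general but raises translation of a few mRNAs, among them that of the transcription factor ATF4. ATF4 dimerizes with other leucine zipper proteins and binds the C/EBP-ATF response element in genes for amino acid synthesis, amino acid transport, tRNA charging and cell death. Because ATF4 is controlled largely at translation, the level of its mRNA and the level of its protein are separate quantities, and the arrays measured mRNA alone.

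Samples labelled liver and brain came from 8 male mice aged 17 weeks, with the strain given as C57BL/6J. The 4 groups were homozygous liver, wild-type liver, homozygous brain and wild-type brain, with 4 arrays each, and the liver and brain arrays of 1 genotype and number came from the same mouse. Homozygous animals were knock-ins of Pts-R15C-ki, an allele of Pts, the gene for 6-pyruvoyl-tetrahydropterin synthase of tetrahydrobiopterin synthesis; the label of that allele stands on the wild-type samples too, whose genotype is given as wild type. The series title concerns mildly reduced tetrahydrobiopterin synthesis and abdominal fat, and the arrays compare the genotypes in each tissue.

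Between 11785 and 12315 probes were detected on the liver arrays and between 13241 and 14576 on the brain arrays, at a detection p-value under 0.05. Of 8 hepatocyte markers, 6 to 8 were detected on each liver array and 2 to 3 on each brain array. All 4 oligodendrocyte markers were detected on each brain array and 0 on each liver array. Of 6 neuron markers, 4 were detected on each brain array and 1 on each liver array. The 5 astrocyte markers told the tissues apart poorly, with 5 detected on each brain array and 4 on each liver array. Wild-type mice 1 and 2 stood apart in liver, as their values below show, so calls, list medians and changes that moved by over 1.5 times are also given without them, with mice 3 and 4 as the wild-type livers. The brain arrays fell into a brighter set, homozygous mice 1 and 2 with wild-type mice 1 and 3, and a dimmer set of the other 4. The number of mice, 4 per genotype, limits the precision, and for probes detected on few arrays a signal close to background limits what can be read.

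The promoters of the 8 genes were searched for the core of the C/EBP-ATF response element, TGATGNAA, on both strands, in RefSeq windows from 250 bases before to 50 after each gene's start in the mouse assembly GRCm38.p6. All 8 genes had a window and Atf5 had 2, which made 9. The core was found in 4 windows, those of Atf3, Trib3, Asns and Chac1, against 3.97% of all 32851 windows of that length. The windows of Atf4, Atf5, Ddit3 and Sesn2 held no match, which says only that these letters are not in these windows. The 4 windows with a match are shown because they hold the letters that ATF4 dimers are known to bind. They are printed 5′ to 3′ on the gene's strand with the final 20 bases left off, and capitals mark each match. A match on the minus strand appears as its reverse complement.
Atf3: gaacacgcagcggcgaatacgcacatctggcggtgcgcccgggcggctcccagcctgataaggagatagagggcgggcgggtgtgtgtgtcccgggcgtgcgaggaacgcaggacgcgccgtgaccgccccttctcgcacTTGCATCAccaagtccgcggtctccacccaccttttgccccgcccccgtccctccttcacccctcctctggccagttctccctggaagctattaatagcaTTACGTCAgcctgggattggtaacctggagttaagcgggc
Trib3: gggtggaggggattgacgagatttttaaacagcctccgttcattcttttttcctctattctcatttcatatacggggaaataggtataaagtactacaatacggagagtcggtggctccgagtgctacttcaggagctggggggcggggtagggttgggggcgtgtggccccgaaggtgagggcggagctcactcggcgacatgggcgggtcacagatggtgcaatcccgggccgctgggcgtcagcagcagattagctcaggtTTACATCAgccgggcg
Asns: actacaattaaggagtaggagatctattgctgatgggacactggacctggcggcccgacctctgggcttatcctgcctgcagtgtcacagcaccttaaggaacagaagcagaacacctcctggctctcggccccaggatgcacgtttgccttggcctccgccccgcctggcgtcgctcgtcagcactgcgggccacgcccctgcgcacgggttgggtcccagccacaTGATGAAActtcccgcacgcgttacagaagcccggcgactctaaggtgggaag
Chac1: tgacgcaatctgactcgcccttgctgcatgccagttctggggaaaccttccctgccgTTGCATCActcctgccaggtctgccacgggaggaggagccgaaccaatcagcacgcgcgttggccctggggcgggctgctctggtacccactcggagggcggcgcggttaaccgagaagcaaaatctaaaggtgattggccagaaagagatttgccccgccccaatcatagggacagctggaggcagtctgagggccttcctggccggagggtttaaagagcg
Atf3 lies on the minus strand, and its window above is chr1:191183304-191183583. Its core match starts 110 bases before the gene's start, and a second run of capitals 10 bases before it is a match to the CRE-like letters TGACGTNA, which 2.93% of all windows held. The Trib3 window is chr2:152344031-152344310 on the minus strand, with its match 15 bases after the start. For Asns the window is chr6:7693180-7693459 on the minus strand, and the match starts 23 bases before the start, on the gene's own strand. The Chac1 window is chr2:119350992-119351271 on the plus strand, with the match 193 bases before the start. The third motif searched, the endoplasmic reticulum stress element, was in 0 of the 9 windows and in 0.119% of all windows. A match is a description of the letters and does not show that a factor binds there.

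In liver, Atf4 fell and Trib3 rose in homozygous mice, and no other tested member passed the threshold. Atf4 mRNA was 2.17-fold lower and Trib3 mRNA 2.04-fold higher on the array scale, each with limma's adjusted p just under 0.05. Of the 12 probes, 9 probes of 7 genes were detected on at least 4 of the 8 liver arrays and were tested, and 2 of the 9 were called, 1 in each direction, beside 0.903% of the 11955 probes tested in liver (0.368% higher and 0.535% lower). The same 2 probes were the ones whose groups did not overlap, beside 13% of all tested probes. The median log2 change of the 9 probes was 0.01 against 0.02 for all tested probes, so the members did not shift together. In whole liver, fewer cells that carry an mRNA and less of that mRNA per cell cannot be told apart.

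**Figure D1:**
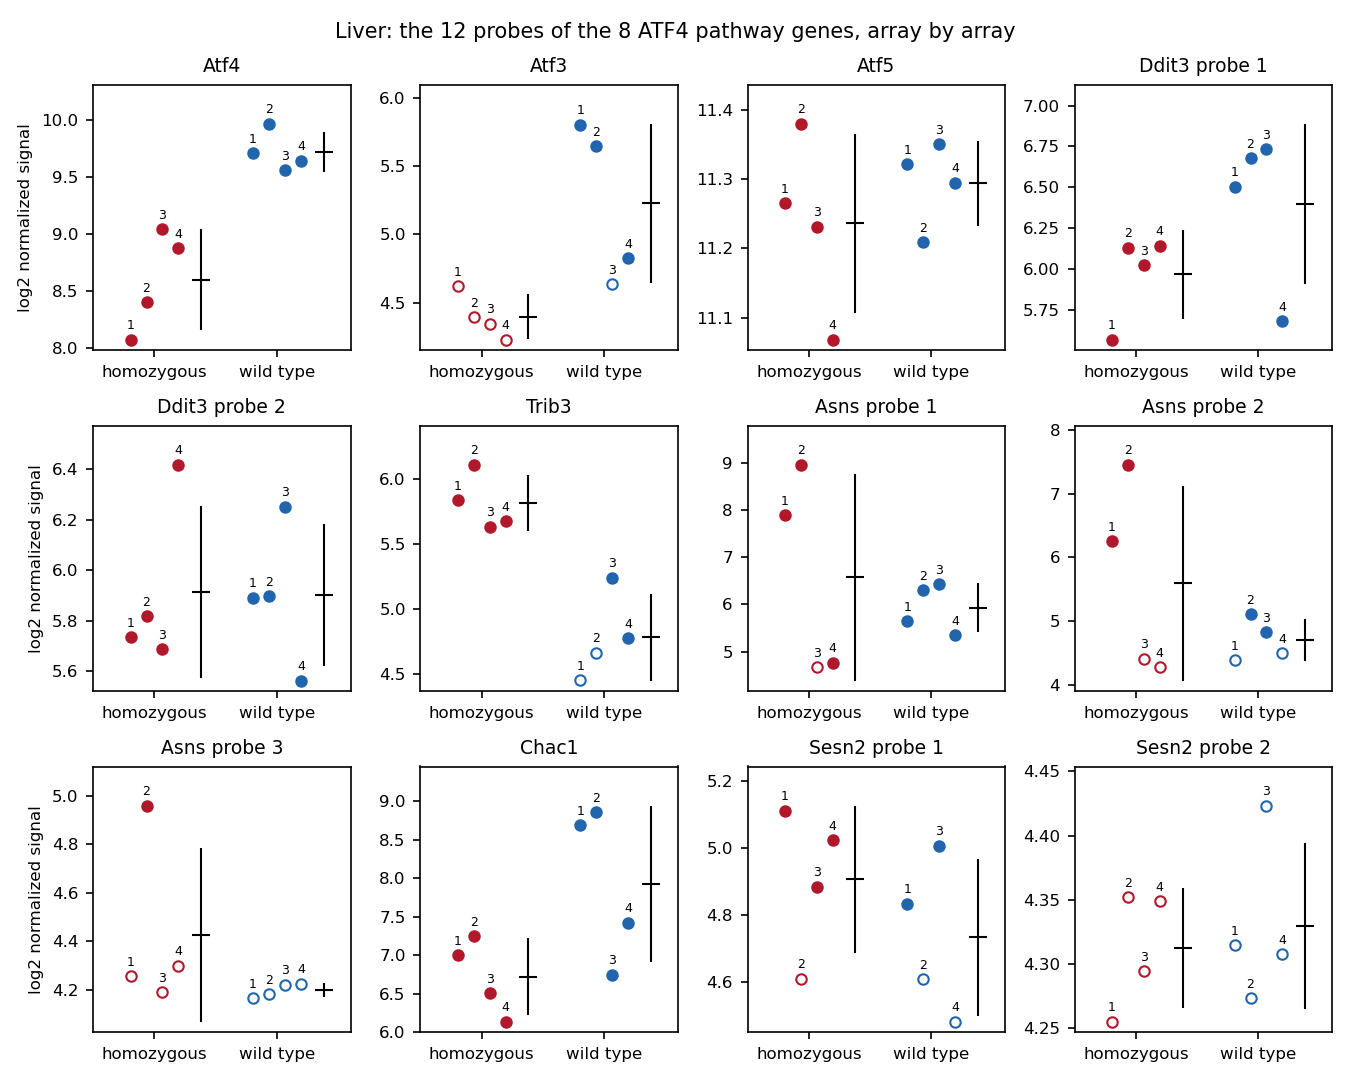
Log2 normalized liver signal (y axis, one scale per panel) of the 12 probes on each array, with homozygous mice left of wild-type mice and mouse numbers beside the points; filled points are arrays on which the probe was detected, open points are not, and the bar gives the mean and SD of 4 arrays. Atf4 lies between 8.07 and 9.04 in homozygous livers and at 9.56 or above in wild-type livers, Trib3 lies the other way without overlap, and the 2 brighter Asns probes are far apart between homozygous mice.

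Atf4, the factor that gives the response its name, had log2 signals of 8.07, 8.40, 9.04 and 8.88 in homozygous livers 1 to 4, against 9.71, 9.96, 9.56 and 9.64 in wild-type livers 1 to 4. Every homozygous liver was below every wild-type liver, and homozygous mice 1 and 2 were the lowest. The means were 8.60 ± 0.44 in homozygous and 9.72 ± 0.18 in wild-type livers (SD, n = 4 each). Atf4 fell by 1.12 on the log2 scale (SE 0.20, 95% interval -1.58 to -0.66, limma, Benjamini-Hochberg adjusted p = 0.0453). The call lay close to the threshold: it ended when any 1 of 7 arrays was left out, all but that of wild-type mouse 3, with adjusted p between 0.0516 and 0.123 and log2 changes between -1.27 and -0.94. Without wild-type mouse 3 the adjusted p was 0.0256. Without wild-type mice 1 and 2 the change was -1.001 with an adjusted p of 0.144 from limma.

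Trib3 encodes a pseudokinase that is induced through ATF4 and CHOP and that restrains ATF4 activity. Its log2 signals were 5.84, 6.11, 5.63 and 5.68 in homozygous livers, against 4.45, 4.66, 5.24 and 4.77 in wild-type livers. Each homozygous liver was brighter than each wild-type one, and the direction is opposite to that of Atf4. The probe was detected on 4 of 4 homozygous and 2 of 4 wild-type arrays, so the 4 homozygous arrays alone would have carried it past the filter, and it was not detected in wild-type mice 1 and 2. Trib3 rose by 1.03 on the log2 scale (SE 0.18, 95% interval 0.64 to 1.43, limma adjusted p = 0.0442, n = 4 per genotype). Here too the call ended without any 1 of the same 7 arrays, with limma's adjusted p between 0.0505 and 0.154 and log2 changes between 0.92 and 1.09, and it held without wild-type mouse 3 (adjusted p = 0.00920). Without wild-type mice 1 and 2 the change was 0.81 with an adjusted p of 0.118. On the deposited signal without background subtraction the change was 0.31, with an adjusted p of 0.0611.

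Chac1, a gamma-glutamylcyclotransferase that degrades glutathione and is a target of ATF4, had log2 signals of 7.00, 7.25, 6.50 and 6.14 in homozygous livers, against 8.68, 8.85, 6.75 and 7.42 in wild-type livers. The 2 highest values were those of wild-type mice 1 and 2, and wild-type mouse 3 lay inside the homozygous range. The change of -1.20 did not pass (SE 0.45, 95% interval -2.22 to -0.19, limma adjusted p = 0.170, n = 4 per genotype). Without wild-type mice 1 and 2 it was -0.36 (adjusted p = 0.650), and without wild-type mouse 3 it was -1.60 (adjusted p = 0.0403, limma).

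Atf3, a stress-induced repressor of the same leucine zipper family, was detected on 0 of 4 homozygous and 3 of 4 wild-type livers, which is 1 array short of the filter, so it was not tested. Its log2 signals were 4.62, 4.39, 4.35 and 4.23 in homozygous livers, against 5.80, 5.65, 4.64 and 4.83 in wild-type livers. No homozygous value reached a wild-type one, by a gap at wild-type mouse 3 of under 0.02, and wild-type mice 1 and 2 were again the highest. Since no homozygous liver was well above background, the homozygous mean was at least 1.47-fold lower, computed against the lowest signal detected on each homozygous array. That bound was 1.04-fold without wild-type mice 1 and 2. With all 25697 probes tested and no filter, limma's adjusted p was 0.224 over the 8 livers and 0.434 without those 2 mice.

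Asns, asparagine synthetase and a classical ATF4 target, varied more between homozygous mice than between genotypes. Probe 1 read 7.89, 8.95, 4.67 and 4.77 in homozygous livers, against 5.64, 6.30, 6.42 and 5.34 in wild-type livers, on the log2 scale. Probe 2 read 6.25, 7.46, 4.41 and 4.28 in homozygous livers, against 4.39, 5.11, 4.83 and 4.50 in wild-type livers. Homozygous mice 1 and 2 had the 2 highest values of all 8 livers on both probes, and homozygous mice 3 and 4 had the 2 lowest on probe 1. The SD of probe 1 was 2.18 in homozygous and 0.52 in wild-type livers (n = 4 each), and that of probe 2 was 1.53 in homozygous and 0.33 in wild-type livers. The fitted changes were 0.64 for probe 1 (SE 0.89, limma adjusted p = 0.700) and 0.89 for probe 2 (SE 0.63, adjusted p = 0.414), with 95% intervals of -1.36 to 2.64 and -0.51 to 2.30, so changes of several-fold in either direction are inside the interval of probe 1. Leaving out homozygous mouse 2 took probe 2 to 0.27 (adjusted p = 0.757), and over the left-out arrays it ran from 0.27 to 1.33, against -0.15 to 1.28 for probe 1. Probe 3, the dimmest, was detected on the liver array of homozygous mouse 2 alone and was not tested in liver.

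Ddit3, which encodes the pro-apoptotic factor CHOP, was detected in all livers. Probe 1 had log2 signals of 5.57, 6.13, 6.03 and 6.14 in homozygous livers, against 6.51, 6.68, 6.73 and 5.68 in wild-type livers, and its change of -0.43 did not pass (SE 0.24, limma adjusted p = 0.298). Wild-type mouse 4 was the sole wild-type liver inside the homozygous range, and without wild-type mice 1 and 2 the change was -0.24 (limma adjusted p = 0.744). Probe 2 gave a change of 0.01 (SE 0.19, 95% interval -0.42 to 0.45), and 0.01 again without those 2 mice, so the 2 probes of the gene did not give the same size of change.

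Atf5, a leucine zipper factor translated under stress much as ATF4 is, had the most even liver values of the tested members, between 11.07 and 11.38 in homozygous and between 11.21 and 11.35 in wild-type livers. Its change was -0.06 (SE 0.10, 95% interval -0.28 to 0.16, limma adjusted p = 0.756). Sesn2 encodes sestrin 2, a leucine sensor upstream of mTORC1 that stress induces. Its probe 1 was detected on 3 homozygous and 2 wild-type livers, with a change of 0.17 (SE 0.15, limma adjusted p = 0.513), and its probe 2 was detected on 0 of the 16 arrays.

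**Figure D2:**
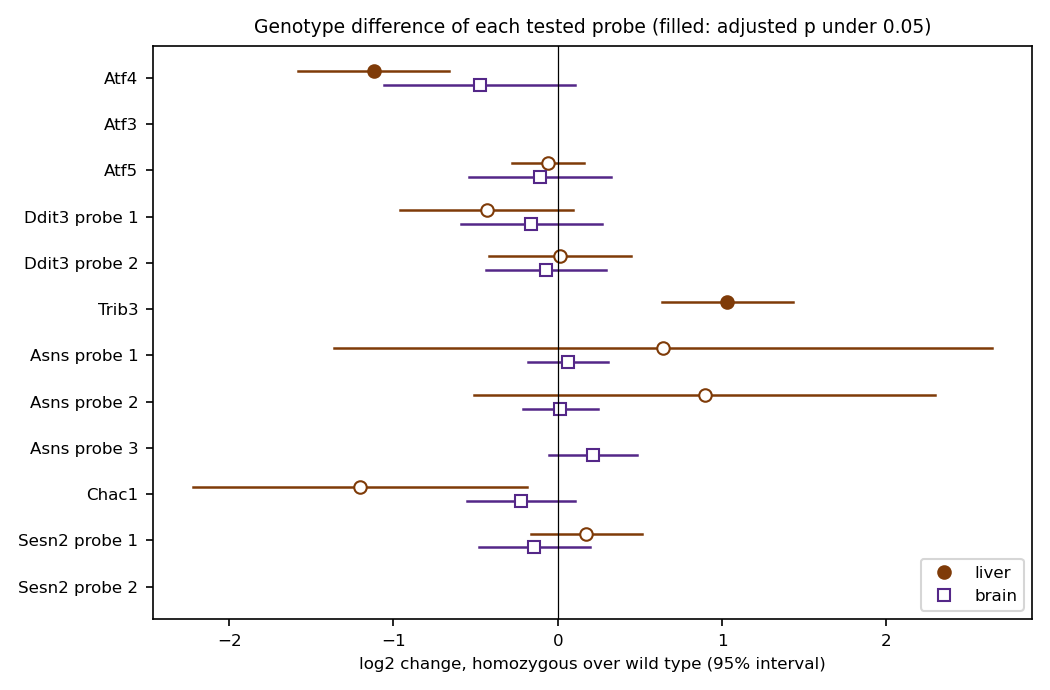
Log2 change of homozygous over wild type (x axis) for each member probe tested in liver (circles) or brain (squares), with the 95% interval of the limma fit; filled symbols passed an adjusted p under 0.05, and a probe without a symbol was not tested in that tissue. In liver Atf4 at -1.12 and Trib3 at 1.03 are filled, the Asns intervals are the widest, and all brain intervals include 0.

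The rest of the pathway was followed in liver through 6 lists of its genes, each gene read by its brightest tested probe. Of the 59 genes tested in these lists 0 rose and 2 fell, Fos and Ddit4, beside the 0.903% of all tested probes, and without wild-type mice 1 and 2 Fos alone was called. Fos passed the filter on wild-type arrays alone. At an unadjusted p under 0.05 limma had 24 of the 59, 7 higher and 17 lower, beside 22.6% of all tested probes. The upstream list of eIF2alpha kinases, eIF2 and eIF2B subunits and eIF2alpha phosphatase subunits had 12 of its 16 genes tested, of which 3 were above and 9 below 0, with a median of -0.17 (-0.12 without wild-type mice 1 and 2). The list's lowest change was that of Eif2ak3, which encodes PERK, at -0.77 (SE 0.23, limma adjusted p = 0.118), and its highest was that of Eif2ak1, which encodes HRI, at 0.39 (SE 0.11, adjusted p = 0.108). Neither passed. Neither gene's groups overlapped, beside 13% of all tested probes, and these genes were picked as the extremes of their list. The changes were -0.32 for Eif2ak3 (limma adjusted p = 0.379) and 0.26 for Eif2ak1 (adjusted p = 0.374) without wild-type mice 1 and 2.

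Among leucine zipper partners of ATF4 and related factors, 10 of 13 genes were tested, with a median of -0.32 (-0.11 without wild-type mice 1 and 2), 7 below 0 and 1 called. Fos, which pairs with Jun proteins in AP-1, read 4.61, 4.64, 4.45 and 4.44 in homozygous livers, against 6.61, 5.77, 5.63 and 5.42 in wild-type livers. It was detected on 0 of 4 homozygous and 4 of 4 wild-type arrays, and fell at least 2.27-fold (limma adjusted p = 0.0442). Leaving out any 1 homozygous array or that of wild-type mouse 2 ended the call, with adjusted p between 0.0667 and 0.164. It also ended without background subtraction (adjusted p = 0.0888) and with no filter (0.0887), and it held without wild-type mice 1 and 2 (limma adjusted p = 0.0225). Cebpa, a hepatocyte factor, had the list's highest change at 0.33 (SE 0.15, limma adjusted p = 0.224), or 0.15 without those 2 mice.

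The list of stress, growth and secreted targets had 18 of 24 genes tested, 9 above and 9 below 0, with a median of 0.00 (0.02 without wild-type mice 1 and 2). Ddit4, an inhibitor of mTORC1 signalling, had log2 signals of 5.80, 6.38, 5.94 and 6.12 in homozygous livers, against 7.33, 7.36, 6.84 and 6.73 in wild-type livers, without overlap. It fell by 1.01 on the log2 scale (SE 0.18, limma adjusted p = 0.0453). Leaving out homozygous mouse 1, 3 or 4 or wild-type mouse 1 or 2 ended the call, with adjusted p between 0.103 and 0.164, and without both of these wild-type mice the change was -0.73 (limma adjusted p = 0.126). Without background subtraction it was -0.50 (adjusted p = 0.0597), and with no filter or with detection on every array the adjusted p was 0.0907 or 0.0520. Cdkn1a, the cell cycle inhibitor p21, had the list's lowest change at -1.61 (SE 0.63, adjusted p = 0.179), with wild-type mice 1 and 2 at 7.41 and 7.79 and mice 3 and 4 at 4.82 and 4.98; without mice 1 and 2 the change was -0.26 (limma adjusted p = 0.382). Cdkn1a was detected on 2 of 4 homozygous and 4 of 4 wild-type livers, so the wild-type arrays alone would have carried it past the filter. Vldlr, a lipoprotein receptor, had the list's highest change at 1.21 (SE 0.37, limma adjusted p = 0.117), with 4 homozygous and 2 wild-type livers detected.

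Of 13 genes for amino acid synthesis and one-carbon metabolism, 6 were tested and 0 called, with 5 above 0 and a median of 0.45 (0.17 without wild-type mice 1 and 2). The extremes were Got1, aspartate aminotransferase of the cytosol, at 0.57 (SE 0.19, limma adjusted p = 0.144), and Aldh18a1, a proline synthesis enzyme, at -0.48 (SE 0.13, adjusted p = 0.0997). Aldh18a1 was detected on 1 of 4 homozygous and 4 of 4 wild-type livers, so its homozygous signal was close to background. Of 13 genes for tRNA synthetases and tRNA export, 10 were tested and 0 called, with 9 below 0 and a median of -0.14 with or without wild-type mice 1 and 2. Wars, tryptophanyl-tRNA synthetase, had the lowest change there at -0.87 (SE 0.19, limma adjusted p = 0.0660), or -0.57 without those mice (adjusted p = 0.230), and Eprs the highest at 0.02 (0.23 without them). Of 11 amino acid transporters 4 were tested and 0 called, with a median of -0.30 (-0.24 without wild-type mice 1 and 2), between Slc7a5 at 0.12 (-0.22 without them) and Slc1a4 at -0.57.

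**Figure D3:**
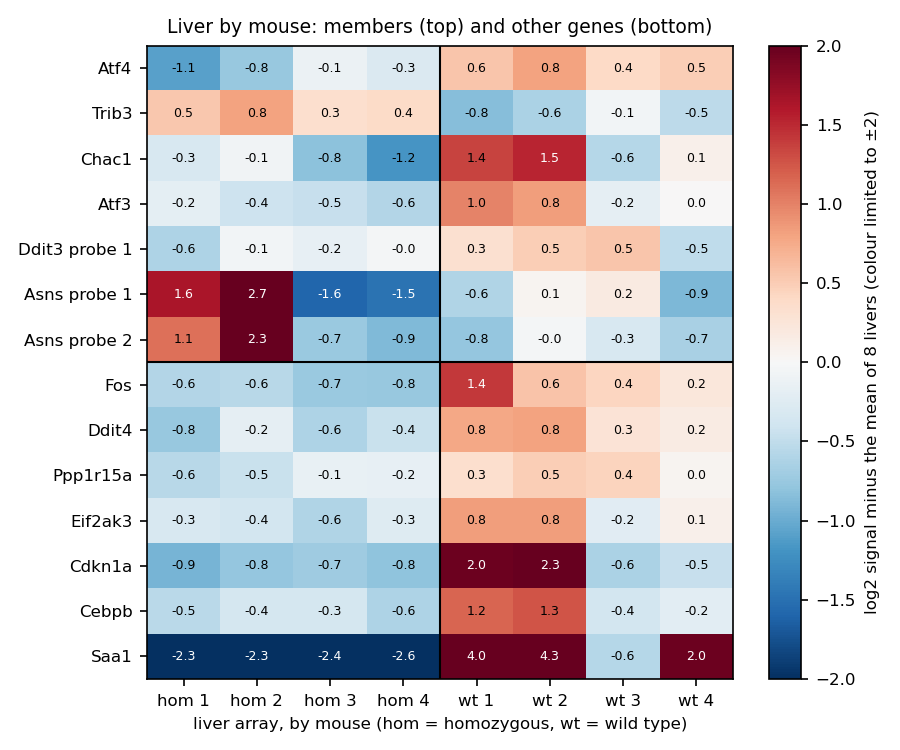
Log2 liver signal minus the gene's mean over the 8 livers, for 7 member probes (upper block) and 7 other genes (lower block), 1 column per mouse with homozygous mice left of wild-type mice; colour runs from blue (below the mean) to red (above it) and stops at ±2. Wild-type mice 1 and 2 are the reddest columns for Chac1, Atf3, Cdkn1a, Cebpb and Saa1, and homozygous mice 1 and 2 for the Asns probes.

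Markers of other cells and states moved with genotype in the same livers. All 6 acute phase genes were lower in every homozygous than in every wild-type liver, beside 13% of all tested probes without overlap, and 3 of them were called, beside the 0.535% called lower. Without wild-type mice 1 and 2, 2 of the 6 were called and Saa1 was not (-3.12, limma adjusted p = 0.0755). The summed level of that list, on the linear scale, was 31691 to 38062.5 in homozygous livers, against 108483, 112640, 43828 and 58536 in wild-type livers 1 to 4. Saa1 read between 5.02 and 5.31 in homozygous livers, against 11.67, 11.89, 7.06 and 9.60 in wild-type livers, so wild-type mice 1 and 2 were the highest for it as they were for Chac1 and Atf3.

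Of 6 liver macrophage markers 4 were tested (not Cd5l or Cd68), all 4 were below 0 and Vsig4 was called, with a summed level of 395.8 to 510.3 in homozygous and 679.0 to 945.4 in wild-type livers. When wild-type mice 1 and 2 were left out, Vsig4 was not called (-1.14, adjusted p = 0.0799) and Clec4f was (-0.89, limma adjusted p = 0.0225). Of 5 microglia markers, some of which other macrophages also express, 3 were tested, 3 were below 0 and 0 were called. The groups of C1qa (-0.64, limma adjusted p = 0.0566) did not overlap, beside 13% of all tested probes. Cx3cr1 was detected on 0 of 4 homozygous livers and passed the filter on wild-type arrays alone. It has only a bound there, at least 1.15-fold lower in homozygous livers. The sums of the 3 tested genes were 102.3 to 123.0 in homozygous and 146.9 to 164.7 in wild-type livers. Of 7 neutrophil and monocyte markers only S100a8 was tested, and the other 6 were not detected on enough arrays. S100a8 was called, with levels of 19.3 to 27.7 in homozygous and 47.4 to 284.5 in wild-type livers. It was detected on 2 of 4 homozygous and 4 of 4 wild-type livers. The wild-type arrays alone would have carried it past the filter, and its homozygous signal was close to background. The S100a8 call ended without wild-type mice 1 and 2 (-1.62, limma adjusted p = 0.0878). Of 4 blood markers 3 were tested and 0 called, with 2 above 0 and Slc4a1 below it. Slc4a1 was at -0.44 (limma adjusted p = 0.155), detected on 2 of 4 homozygous and 4 of 4 wild-type livers. The blood sums, in which Hba-a1 was the brightest gene, were 16362 to 20410 in homozygous and 9602 to 12904 in wild-type livers. Hepatocyte markers summed to 119984 to 128047 in homozygous and 110539 to 124421 in wild-type livers, with 0 of 6 called. In the lists of astrocytes (4 of 5 genes tested), stellate cells (4 of 4) and endothelium (2 of 4) 0 genes were called in liver. Neurons, lymphocytes and bile duct cells had 1 tested gene each, also not called, and oligodendrocytes had 0. For these lists the lack of calls therefore says little of the cells. The part of these markers in the changes of Atf4, Trib3, Chac1, Fos and Ddit4 was not tested.

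In brain, no member passed the threshold and no member's groups kept apart. Of the 12 probes, 9 probes of 6 genes were tested and 0 called, beside 0.0144% of the 13862 probes tested there (2 probes); 0 of the 9 had groups that did not overlap, beside 2.06% of all tested probes. By limma without adjustment, 439 probes (3.17%) had p under 0.05, and none of the members was among them. The median change of the 9 probes was -0.11, against 0.00 for all tested probes. Atf3 and Trib3 were each detected on 1 of the 8 brain arrays, a wild-type one, so nothing can be said of them in brain beyond a signal close to background.

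**Figure D4:**
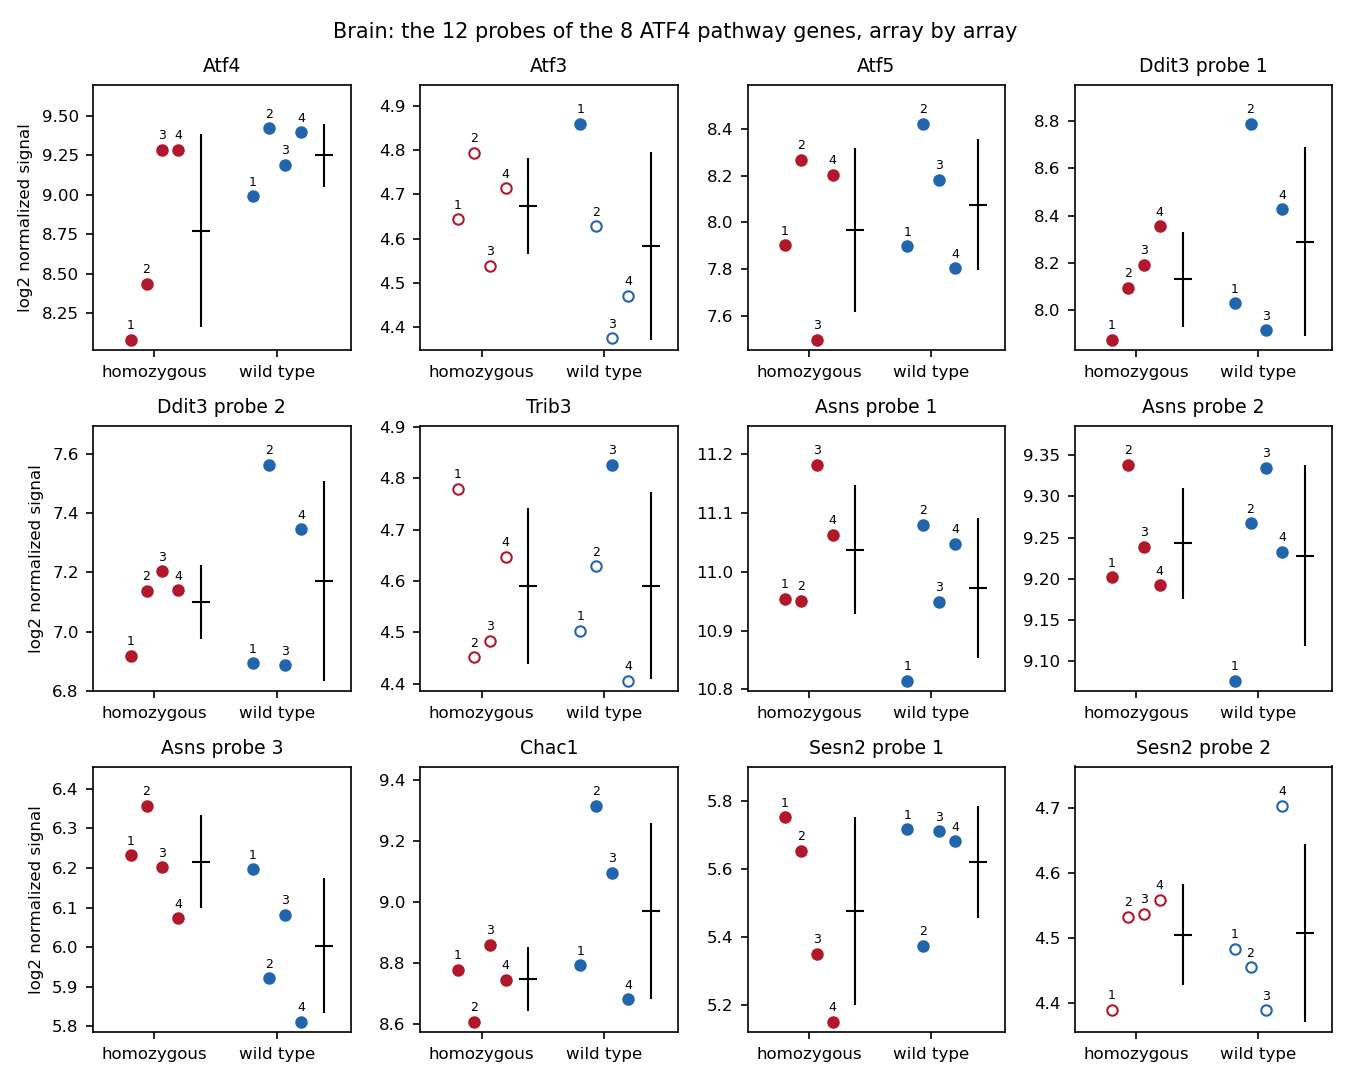
Log2 normalized brain signal (y axis, one scale per panel) of the 12 probes on each array, drawn as for liver, with homozygous mice left of wild-type mice. Homozygous mice 1 and 2 lie lowest for Atf4, at 8.08 and 8.44, while homozygous mice 3 and 4 lie at 9.28; the groups overlap in all 9 tested panels.

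Atf4 had brain log2 signals of 8.08, 8.44, 9.28 and 9.28 in homozygous mice, against 8.99, 9.42, 9.19 and 9.39 in wild-type mice. Homozygous mice 1 and 2, which had the lowest Atf4 in liver, also had the lowest in brain, and homozygous mice 3 and 4 lay among the wild-type values. The change was -0.48 (SE 0.26, 95% interval -1.06 to 0.11, limma adjusted p = 1.00, n = 4 per genotype), and without homozygous mouse 1 it was -0.25. Homozygous mice 1 and 2 are also both homozygous arrays of the brighter set. With brightness as a block the change was -0.48 (SE 0.15, adjusted p = 0.575), within the brighter arrays it was -0.83 (adjusted p = 0.519) and within the dimmer arrays -0.12 (adjusted p = 0.915), 2 arrays per genotype in each. The fits within each set were added after the data were seen, and the sets were drawn from the signal of these same arrays. Of 7 neutrophil and monocyte markers 2 were tested in brain, with sums of 87.0 to 155.7 in homozygous brains, against 1415, 1078, 113.6 and 179.4 in wild-type brains 1 to 4; the part of these in the brain values was not tested.

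The other brain changes were smaller than that of Atf4. The second largest in size was that of Chac1 at -0.22 (SE 0.15), followed by Asns probe 3 at 0.21 (SE 0.12), Ddit3 probe 1 at -0.16 (SE 0.19), Sesn2 probe 1 at -0.14 (SE 0.15) and Atf5 at -0.11 (SE 0.20), all with a limma adjusted p of 1.00. The spread that Asns showed in liver was absent from brain, where probe 1 lay between 10.95 and 11.18 in homozygous and between 10.81 and 11.08 in wild-type mice. The 95% intervals of Asns probe 1 (-0.18 to 0.31) and probe 2 (-0.21 to 0.24) put the narrowest bounds on a brain change among the members. In the 6 lists of the wider pathway 0 of 64 tested genes were called in brain, beside 0.0144% of all tested probes. At an unadjusted p under 0.05 limma had 1 of the 64, beside 3.17% of all tested probes. This was Herpud1 of endoplasmic reticulum protein degradation, at -0.36. List medians there ran from -0.03 to 0.04, and the lowest change among the extremes of the lists was that of Cdkn1a at -0.50 (SE 0.32, limma adjusted p = 1.00).

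Whether the genotype changed a member differently in the 2 tissues was tested over the 10492 probes detected in both. Of 8 member probes tested 0 were called, beside 0.0762% of all, with adjusted p of 0.464 or more. At an unadjusted p under 0.05 limma called 0 of the 8, beside 11.7% of all. The smallest adjusted p was that of Chac1, whose change in liver minus that in brain was -0.98 on the log2 scale (SE 0.51, 95% interval -2.05 to 0.09). For Atf4 the difference was -0.64 (SE 0.35, limma adjusted p = 0.495), and with each mouse as its own block -0.64 (SE 0.17, adjusted p = 0.247). So Atf4 passed in liver and not in brain, but its change was not shown to differ between the tissues. Trib3, which was not tested in brain, could not enter this comparison.

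Liver and brain of wild-type mice differed in 8 of the 10 member probes tested. Of these 10 probes, 3 were higher in liver and 5 lower, beside 38.8% of the 14375 probes tested that were higher in liver and 38.4% that were lower, 77.2% in all, so a called tissue difference is the common case. Asns probes 2 and 3, both among the 5, would have passed the filter on the brain arrays alone, where they were brighter. Atf5 averaged 11.19 ± 0.05 in wild-type liver and 7.80 ± 0.31 in wild-type brain (SD, n = 4 each), which is 10.5-fold higher in liver (log2 3.39, SE 0.15, limma adjusted p = 5.6e-09). Atf4 was 0.75 higher in liver on the log2 scale (SE 0.14, limma adjusted p = 0.000576). Atf3 passed as higher in liver (adjusted p = 0.00345), with 3 of 4 livers and 1 of 4 brains detected, so the brain side of that difference is a signal close to background and its size is not read.

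Asns was the member furthest below brain in wild-type liver. Probe 1 averaged 6.31 ± 0.49 in wild-type liver and 11.05 ± 0.15 in wild-type brain, 26.7-fold lower in liver (log2 -4.74, SE 0.22, limma adjusted p = 6.8e-09). Probe 2 also passed as lower in liver (limma adjusted p = 1.4e-08), with 2 of 4 livers and 4 of 4 brains detected. The liver side of that difference is close to background, so its size is not read. Probe 3, detected in 0 of 4 livers and 4 of 4 brains, was at least 1.57-fold lower in liver. Ddit3 was lower in liver by 1.28 on probe 1 (SE 0.26) and by 0.54 on probe 2 (SE 0.20, adjusted p = 0.0281, limma). On probe 2 the tissues overlapped, and the call held in 2 of 4 fits with 1 mouse left out (limma adjusted p 0.0102 to 0.169). With no filter it ended (adjusted p = 0.0532). Chac1 at -0.60 (SE 0.39, adjusted p = 0.182) and Sesn2 probe 1 at -0.24 (SE 0.17, limma adjusted p = 0.210) did not pass.

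**Figure D5:**
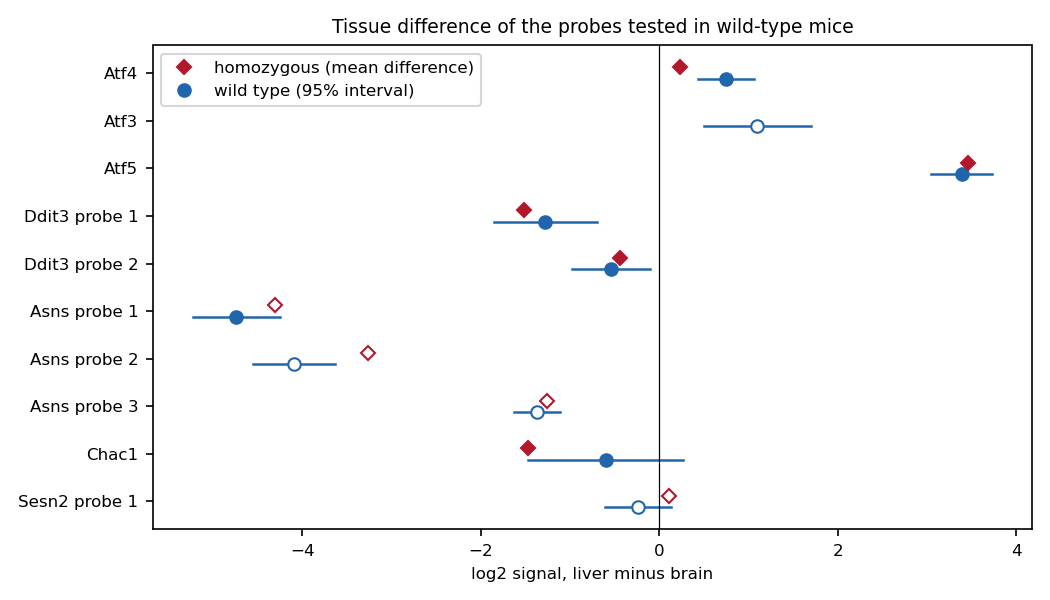
Log2 signal of liver minus brain (x axis) for the 10 member probes tested in wild-type mice, with diamonds for the mean difference in homozygous mice (no test) and circles for wild-type mice with the 95% interval of the limma fit; open symbols had at least 1 array without detection in that genotype, and Atf3 has no diamond because it was detected on none of the homozygous arrays. Atf5 lies furthest to the right at 3.39 in wild-type mice and Asns probes 1 and 2 furthest to the left; Asns probe 3, detected in 0 of 4 wild-type livers, has only a bound there.

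In homozygous mice, given without a test, liver minus brain was 3.46 for Atf5 and 0.24 for Atf4, against 3.39 and 0.75 in wild-type mice; Atf3 was detected on none of these homozygous arrays and is not given. For Asns probe 1 it was -4.30 in homozygous and -4.74 in wild-type mice, and for Chac1 -1.47 in homozygous and -0.60 in wild-type mice. Atf5 was thus on the liver side and Asns on the brain side in both genotypes.

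The named genes whose liver values ran most like a member's over the 8 livers were found by Pearson's r, as a description over points that share genotype, mouse and array. Each r given is among the 2 highest over all named genes tested in that tissue. Every tested member probe had 2 such genes at r of 0.92 or more in either tissue, so a high r sets no pair apart. For Atf4 they were Ube2d2a (r = 0.97) and Tmem199 (r = 0.97), and for Trib3 Mpg (r = 0.99) and Rdh7 (r = 0.98). Chac1 ran closest to Nupl2 (r = 0.99) and to Xbp1 (r = 0.98), which encodes a factor of the unfolded protein response. For Asns the 2 probes named different genes, Glyctk (r = 0.97) and Ptprj (r = 0.92) for probe 1 and Rhcg (r = 0.94) and Zc3hc1 (r = 0.92) for probe 2. In the 8 brains Atf4 ran closest to Clip1 (r = 0.98) and Sfxn1 (r = 0.97), a different pair from that in liver.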

How the data were processed

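Each of the 16 samples was read on 1 Illumina bead array with a single colour, and probes were named from the platform's probe table. The deposited main table held, per the file headers, a mean signal per probe, a linear intensity without normalization across arrays, and a detection p-value deposited beside each signal. A second deposited table held intensity values that the authors normalized across arrays by a method not given in the sources used here; within each array it kept the rank order of the signals. The submitters' processing notes name GenomeStudio 2011.1. Slide and scan are not given in the sources used here, so these batches were not tested.

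Signals were background-corrected with nec in limma 3.58.1 (R 4.3.3, offset 16), quantile-normalized within each tissue (over all 16 arrays for the comparison of tissues) and put on the log2 scale. Probes with a detection p-value under 0.05 on at least 4 of the 8 arrays of a comparison were tested with lmFit and eBayes. The Benjamini-Hochberg adjustment ran over all tested probes, and an adjusted p under 0.05 was called. The members, the 6 pathway lists and 13 marker lists, and the lists' genes were chosen with earlier results of these arrays known. Genes named from the lists are those that passed and each list's highest and lowest change. Genes named outside this rule (Saa1, S100a8, Vsig4, Clec4f, C1qa, Cx3cr1, Hba-a1, Slc4a1, Herpud1, Bbc3, Map1lc3b, and Ppp1r15a and Cebpb in the plot of liver values by mouse) were chosen after their values were seen. A probe detected on no array of a group has only a bound there. On simulated data, 79% of probes changed by a log2 of 1 were recovered in liver, 76% in brain, 62% for the difference between tissues' genotype effects and 78% between tissues. The simulated noise was drawn separately for each probe and array, so differences between arrays that many probes share were absent from it. These shares therefore do not give the recovery on the real arrays.

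Alternatives were no background subtraction, scaling to the 75th percentile, the authors' normalized values, other filters, blocks, left-out arrays, other variance models and weights, and 1 fit over 16 arrays. Liver and brain of 1 mouse pair by the labels; the deviations of the 2 tissues correlated between 0.01 and 0.12 in homozygous and between -0.00 and 0.13 in wild-type mice. Mice of the 2 genotypes with 1 number are different animals.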

Additional observations from a re-analysis of the deposited data

Results flagged for a closer look

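Of 48 sets of 4 arrays (12 probes in 4 groups), 3 held an array far from the other 3 by Dixon's test, where chance alone marks about 5% of such sets. Asns probe 3 read 4.96 in the liver of homozygous mouse 2, against 4.19 to 4.30 in the other homozygous livers, and this was the sole liver in which the probe was detected. Sesn2 probe 1 read 5.37 in the brain of wild-type mouse 2, against 5.68 to 5.72 in the other wild-type brains. Sesn2 probe 2 read 4.39 in the brain of homozygous mouse 1, against 4.53 to 4.56 in the other homozygous brains, and was detected on none of those arrays.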

How the results depend on the processing

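The 2 liver calls were sensitive to the settings: Atf4 passed under 6 of 18 alternatives (log2 between -1.27 and -0.80, adjusted p 0.0107 to 0.144) and Trib3 under 6 of 17 (0.31 to 1.18, 0.00185 to 0.154), each in 1 direction throughout. Chac1 passed under 2 of 18, with array weights (adjusted p = 0.0122) and without wild-type mouse 3. The number of member probes called in liver was 0 without background subtraction, without a filter, with detection on every array, with the replicate block or without wild-type mice 1 and 2, and 0 to 3 when 1 array was left out. With detection on every array Trib3 was not among the tested probes, as wild-type mice 1 and 2 lacked detection. The cause of these differences between settings was not tested.

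Over all probes, the liver count of 108 became 35 without a filter, 30 with detection on every array, 32 with the replicate block, 23 without wild-type mice 1 and 2, 2931 with array weights, 811 in 1 fit over 16 arrays and 9 to 944 with 1 array left out. The brain count of 2 became 1 without background subtraction, with 75th percentile scaling, with the authors' values or with the replicate block, 0 with detection on every array, 5 with brightness as a block, 4 and 1 within the brighter and dimmer arrays (splits added after seeing the data), and 2 to 4 with 1 array left out. The count of 8 for the difference between tissues became 19 without background subtraction, 17 with the authors' values, 3 with mouse as replicate block, 1 without wild-type mice 1 and 2, and 0 to 75 with 1 array left out. The tissue count became 6710 with detection on every array, with 5 member probes called in place of 8. Atf3 and Asns probes 2 and 3, called in the main fit, could not be tested under that filter. With 1 mouse left out the tissue count was 10404 to 10547, with 7 to 8 member probes called. Scaling to the 75th percentile moved the median tissue difference of all probes to 0.19 against 0.03, and no tested member changed side.

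Numbers shared between genotypes do not pair mice: deviations of same-numbered arrays correlated between -0.04 and -0.00 in liver and between -0.51 and 0.56 in brain. The replicate block gave Atf4 an adjusted p of 0.0887, Trib3 0.0875, Fos 0.0578 and Ddit4 0.0717 in liver.

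Changes that turned sign, among the member probes and the list genes that passed or were extremes of their list, were all short of the threshold. In liver these were Eprs (-0.0088 with 75th percentile scaling, -0.12 with array weights, -0.058 to 0.13 with 1 array left out), Slc7a5 (-0.22 without wild-type mice 1 and 2, -0.0018 to 0.23 with 1 left out), Asns probe 1 (-0.15 to 1.28 with 1 left out) and Ddit3 probe 2 (-0.15 to 0.13). In brain without wild-type mice 1 and 2 they were Asns probe 2 (-0.041), Lars (-0.050), Ppp1r15b (0.13) and Cdkn1a (0.13), and with array weights Ddit3 probe 2 (0.042), Lars (-0.038) and Ppp1r15b (0.069). Within the brighter brain arrays they were Atf5 (0.045), Ddit3 probes 1 (0.013) and 2 (0.14), Aldh1l2 (-0.036), Lars (-0.093) and Ppp1r15b (0.14), and within the dimmer ones Asns probe 2 (-0.035). With 1 brain array left out, ranges that crossed 0 were Asns probe 2 (-0.036 to 0.051), Atf5 (-0.21 to 0.049), Ddit3 probe 1 (-0.28 to 0.0057) and probe 2 (-0.17 to 0.059), Lars (-0.045 to 0.16), Ppp1r15b (-0.24 to 0.014) and Slc3a2 (-0.066 to 0.35). For the difference between tissues, Atf5 was -0.062 without wild-type mice 1 and 2 and -0.10 to 0.19 with 1 array left out, Asns probe 1 -0.25 to 1.26 and Ddit3 probe 2 -0.085 to 0.30. The remaining list genes were not followed through all settings. Some of them also turned sign in liver without wild-type mice 1 and 2, such as Bbc3 (from 0.32 to -0.85) and Map1lc3b (from -0.13 to 0.48).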
